A study of Mus musculus with 12 samples.

Results

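The rows described here are annotated to the mouse mitochondrial genome and to 7 nearly identical pieces of it that lie in the nuclear genome. They were taken as every row of the gastrocnemius expression table whose symbol starts with mt-, which gave 37 rows (13 mRNAs, 2 rRNAs and 22 tRNAs), plus the nuclear copies Gm10925, Gm28437, Gm28661, Gm29216, Gm10222, Gm28439 and Gm28438. These 44 rows stood among 30488 in the table, and the rule uses no expression value. All 44 were above 0 in each of the 12 libraries, and all 44 passed a filter of a mean of 1 TPM or more that 9152 genes passed.

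Gastrocnemius (calf) muscle was collected at 32 weeks of age from mice that carried engineered alleles of Gmppb. This gene encodes GDP-mannose pyrophosphorylase B, an enzyme that makes the sugar donor GDP-mannose for protein glycosylation. There were 3 mice in each of 4 groups. KO mice were heterozygous for a Cas9 deletion of 303 bp that removed exons 2 and 3, so they kept a wild-type allele. P32L mice were heterozygous for a base change at position 95 (C to T) that turns proline 32 into leucine. R287Q mice were homozygous for a base change at position 860 (G to A) that turns arginine 287 into glutamine. WT mice carried the unaltered gene. All mice received a standard diet, and the labels describe no restriction of the alleles to muscle. The labels number the mice within each group and give no litter, sex, collection day or batch, so p-values measure the spread between these mice alone.

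Mitochondrial DNA is a small circle transcribed from both strands into long precursor RNAs. In most places the tRNAs sit between the mRNAs and rRNAs, and excision of the tRNAs by RNase P and ELAC2 releases the other RNAs. The mRNAs encode core subunits of respiratory complexes I, III, IV and V, which skeletal muscle holds in large amounts. Pieces of mitochondrial DNA have also been inserted into nuclear chromosomes, where they are called nuclear mitochondrial segments and usually encode no working protein.

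Values are TPM, reads corrected for the length of each transcript and scaled so that libraries share one sum, recovered from the deposited log2(TPM + 1). The library totals lay between 997591 and 998739 TPM, and the number of reads behind a value is unknown. TPM gives shares, so a larger share for these rows leaves a smaller one for the others, and in bulk muscle fewer cells of a type cannot be told apart from less RNA per cell. Gmppb itself measured 3.37, 3.62 and 3.33 TPM in KO muscle, 3.57, 3.55 and 3.26 TPM in P32L muscle, 3.03, 4.09 and 4.16 TPM in R287Q muscle, and 4.42, 3.02 and 3.61 TPM in WT muscle. These overlapped in all groups, and the table has no values per exon that could check the deletion. Muscle markers were high, with Acta1, skeletal actin, at 16079 to 23879 TPM and Ckm, muscle creatine kinase, at 1943 to 3288 TPM. The heart markers Myh6, Nppa and Tnni3 summed to 0.516 to 1.59 TPM, and Nppa was listed at 0 in 4 libraries. Slow-fibre genes, 7 in number, differed far more between mice and summed to between 11.1 TPM in P32L replicate 3 and 385 TPM in KO replicate 3.

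All 7 nuclear copies lie next to each other on the minus strand of chromosome 1, between bases 24611535 and 24616197 of build GRCm38 (mm10) in the GENCODE M21 annotation, which lists them as unprocessed pseudogenes. This run of 4663 bp follows the mitochondrial genome from base 6390 to base 11042 (4653 bp) in the same gene order. Gm29216 matches the last 483 bases of mt-Co1 (31.3% of that gene), and Gm28439 the first 876 bases of mt-Nd4 (63.6%). The other 5 cover 99.0% to 99.9% of their counterparts, Gm28661 that of mt-Co2, Gm10925 that of mt-Atp6, Gm28437 that of mt-Co3, Gm28438 that of mt-Nd3 and Gm10222 that of mt-Nd4l. Over 4140 aligned bases there were 2 mismatches, an identity of 99.95%, and 5 of the 7 copies had none. Gm10222 (chr1:24612407-24612700) is shown whole, from the GENCODE M21 transcripts, as a copy with no base that differs from mt-Nd4l (chrM:9877-10173), which is 3 bases longer at its end.
Gm10222: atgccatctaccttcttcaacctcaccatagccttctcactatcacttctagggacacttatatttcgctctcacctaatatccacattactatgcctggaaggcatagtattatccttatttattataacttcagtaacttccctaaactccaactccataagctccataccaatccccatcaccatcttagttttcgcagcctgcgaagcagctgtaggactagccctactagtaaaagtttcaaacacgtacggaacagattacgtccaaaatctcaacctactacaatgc
Both mismatches are shown in the next 2 pairs, with the differing bases in capitals. T3C, counted from base 1 at the 5′ end of mt-Nd3 with the mitochondrial base first, separates Gm28438 (chr1:24612775-24613119) from mt-Nd3 (chrM:9459-9806) in their first 60 bases.
Gm28438: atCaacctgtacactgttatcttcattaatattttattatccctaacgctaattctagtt
mt-Nd3: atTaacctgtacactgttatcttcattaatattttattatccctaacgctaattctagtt
A1066T, counted likewise in mt-Co1 (chrM:5328-6872), separates Gm29216 (chr1:24615706-24616197) from that gene, and the first 9 bases of Gm29216 could not be aligned. The capitals mark those 9 bases, beside the 9 that begin at base 1054 of mt-Co1, and the mismatch.
Gm29216: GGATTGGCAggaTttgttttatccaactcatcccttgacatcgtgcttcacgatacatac
mt-Co1: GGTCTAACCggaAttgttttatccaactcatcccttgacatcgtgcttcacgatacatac
Only annotated transcripts were aligned, and the sequence between the copies was not compared. Counted between aligned bases, the distance from Gm28438 to Gm10222 is 1 base longer than the matching distance in the mitochondrial genome. At least 1 further difference therefore lies between these copies. Within the aligned bases, a read that covers neither mismatch has the same sequence at both loci, so the values of copies and counterparts cannot be assigned to either locus with certainty. The stretch also spans mt-Atp8 and the tRNAs mt-Ts1, mt-Td, mt-Tk, mt-Tg and mt-Tr, for which the table holds no row of a copy. In all, 11 mitochondrial genes lie inside it, 2 in part and 24 outside.

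Rows of the mitochondrial mRNAs and of the nuclear copies held some of the highest TPM values in the table. As reads cannot be assigned to either locus with certainty, a high value for a copy does not show that the copy itself is transcribed. Of the 20 rows with the highest mean level, 19 were mitochondrial mRNAs or nuclear copies, and the remaining one was Acta1 at rank 15. The rRNAs stood at ranks 26 and 29, and the tRNAs from rank 22 (mt-Ts1) to rank 1240 (mt-Tf). Mitochondrial rows held 53.0% to 58.4% of a library's TPM and the nuclear copies 19.62% to 20.95%, and the remaining 21.2% to 27.4% was shared by all other genes. Within the mitochondrial rows the mRNAs took 90.9% to 92.8%, the rRNAs 1.47% to 2.44% and the tRNAs 5.23% to 7.59%. Levels of the mRNAs lay within 8.36-fold of each other, from mt-Nd3 with a mean of 12239 TPM to mt-Co1 with 102301 TPM. Those of the tRNAs spanned 446-fold, from mt-Tf at 21.9 TPM to mt-Ts1 at 9785 TPM. The tRNAs also varied more between mice, with a median coefficient of variation of 20.5% (8.28% to 45.3%) over the 12 libraries, against 4.99% (2.95% to 13.4%) for the mRNAs. A tRNA gene is 59 to 75 bases long, so a small number of reads can carry a large TPM value.

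**Figure D1:**
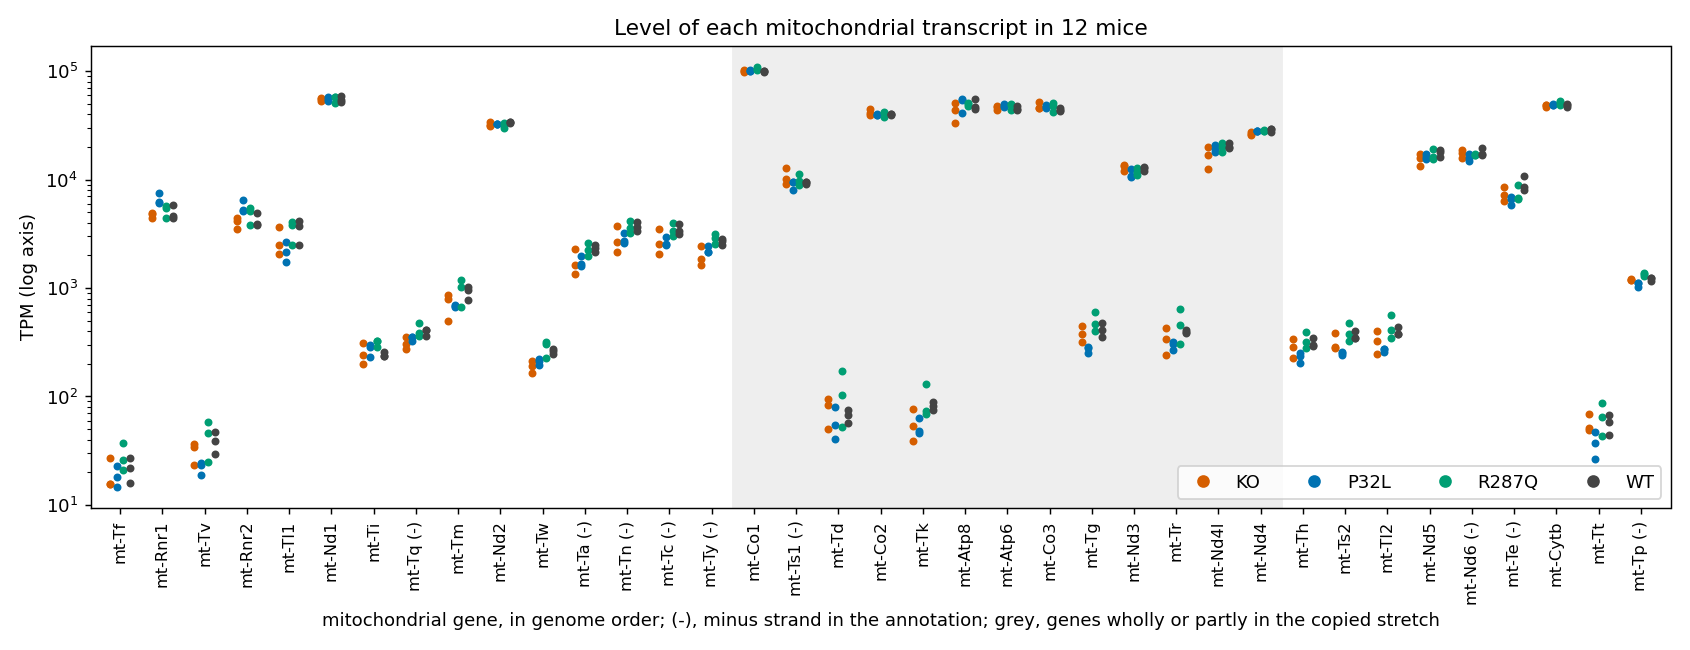
TPM of the 37 mitochondrial transcripts on a log axis, in genome order, with 1 point per mouse and colours for KO, P32L, R287Q and WT. The mRNAs lie within 8.36-fold of each other and the tRNAs span 446-fold, and grey marks the genes that lie wholly or partly in the stretch copied on chromosome 1.

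No member passed the test in any comparison. limma, fitted over 9152 genes with Benjamini-Hochberg adjustment at 0.05, called 0 of the 44 rows in KO against WT, where it called 0.0109% of all genes. It called 0 of 44 in P32L against WT (0.0437% of all genes) and 0 of 44 in R287Q against WT (0%). Among the mutant lines it called 0 of 44 in P32L against KO (0.0219%), in R287Q against KO (0.0437%) and in R287Q against P32L (0%). At an unadjusted p under 0.05, 1 member was higher and 9 were lower in KO than in WT, beside 3.67% of all genes higher and 2.28% lower. In P32L 2 were higher (3.98% of all genes) and 12 lower (2.55%), and in R287Q 1 was higher (1.7%) and 0 lower (3.66%). At the same limit 4 members were higher (4.1% of all genes) and 4 lower (3.91%) in P32L than in KO. In R287Q against KO 8 were higher (1.99%) and 0 lower (5.94%), and in R287Q against P32L 13 were higher (1.39%) and 1 lower (5.28%). The 3 comparisons with WT share the same WT mice, so their values are given side by side and are not independent of each other.

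The mitochondrial share itself overlapped between groups. It was 57.1, 53.0 and 54.7% in KO muscle, 54.9, 57.6 and 55.7% in P32L muscle, 57.9, 57.9 and 56.1% in R287Q muscle, and 54.8, 56.1 and 58.4% in WT muscle. The means were 54.9% ± 2.05 in KO, 56.1% ± 1.39 in P32L, 57.3% ± 1.07 in R287Q and 56.5% ± 1.82 in WT muscle (SD, n = 3 each). Two-sided exact permutation tests against WT gave p = 0.4 for KO, p = 0.8 for P32L and p = 0.7 for R287Q, and 0.1 is the smallest p that 3 mice against 3 allow. The copies' share was 20.4% ± 0.707 in KO, 20.3% ± 0.398 in P32L, 20.5% ± 0.580 in R287Q and 20.1% ± 0.325 in WT muscle (SD, n = 3 each), with exact permutation p = 0.6 for KO, p = 0.5 for P32L and p = 0.3 for R287Q.

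**Figure D2:**
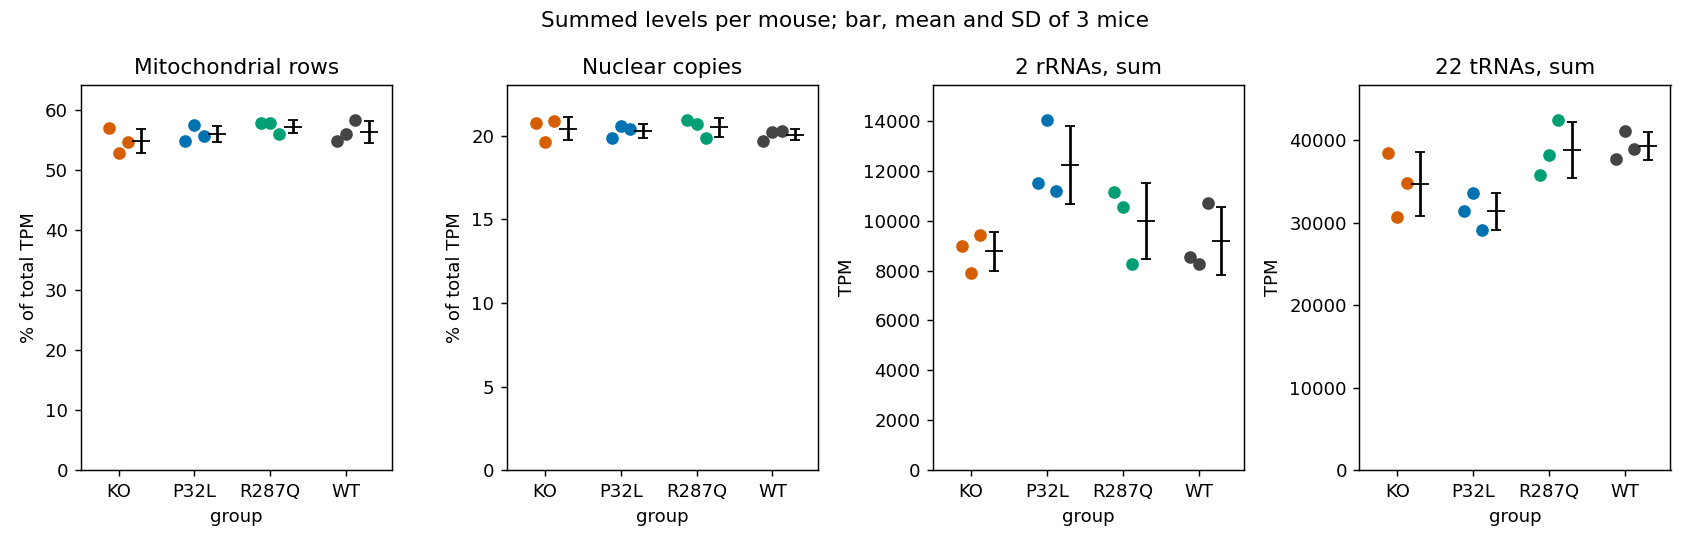
Share of total TPM held by mitochondrial rows and nuclear copies, and summed TPM of the 2 rRNAs and 22 tRNAs, with 1 point per mouse and the mean and SD of 3 mice in black, for KO, P32L, R287Q and WT. All 3 P32L mice lie above all 3 WT mice for the rRNAs and below them for the tRNAs, while the mitochondrial shares overlap in all groups.

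The 7 complex I mRNAs encode ND1 to ND6 and ND4L, membrane subunits of the complex that takes electrons from NADH. mt-Nd1 had 57085, 53109 and 55554 TPM in KO muscle, 53412, 58276 and 55932 TPM in P32L muscle, 57594, 57974 and 50996 TPM in R287Q muscle, and 54102, 52496 and 59113 TPM in WT muscle. mt-Nd2 had 33934, 31755 and 31165 TPM in KO muscle, 32894, 32434 and 32556 TPM in P32L muscle, 30073, 32083 and 33484 TPM in R287Q muscle, and 33747, 34076 and 33414 TPM in WT muscle. It was lower without overlap in P32L than in WT, with a log2 difference of -0.05, and was the only one of the 13 mRNAs to be so, beside 3.65% of all genes. For mt-Nd3 the values were 13408, 11932 and 13705 TPM in KO muscle, 10666, 12666 and 10737 TPM in P32L muscle, 12909, 11089.9 and 11858 TPM in R287Q muscle, and 12053, 13029.9 and 12813 TPM in WT muscle. P32L replicates 1 and 3 were the lowest of the 12 mice and KO replicate 3 the highest, and the groups overlapped. mt-Nd4l, the shortest mRNA of this complex, had 20027, 16980.2 and 12642 TPM in KO muscle, 18169.5, 19213 and 21123 TPM in P32L muscle, 18020.0, 20147 and 21838 TPM in R287Q muscle, and 19639.7, 20081 and 21798 TPM in WT muscle. KO replicate 3 had the lowest value of all mice and KO replicate 2 the next lowest, while KO replicate 1 lay inside the WT range. The log2 difference of mt-Nd4l between KO and WT was -0.33 (SE 0.14, 95% interval -0.65 to -0.02, adjusted p = 0.787), and it was -0.15 without KO replicate 3. mt-Nd4, which shares 7 bases with the end of mt-Nd4l, had 27771, 26314 and 25935 TPM in KO muscle, 28329.9, 27974 and 28231 TPM in P32L muscle, 28049, 28209 and 28788 TPM in R287Q muscle, and 27732, 29369 and 29074 TPM in WT muscle. mt-Nd5 had 17089, 15747 and 13350.0 TPM in KO muscle, 17122, 15433 and 16179.5 TPM in P32L muscle, 15433, 16364 and 19204 TPM in R287Q muscle, and 16346, 18701 and 17831 TPM in WT muscle. Both had their lowest value in KO replicate 3, and neither separated any line from WT. mt-Nd6 is the only mRNA encoded on the minus strand and overlaps mt-Nd5 by 14 bases on the other strand. Because the library kit does not mark strand, reads of mt-Nd6 cannot be told apart from reads of the opposite strand at the same place. This holds over the whole gene, not the overlap alone. For mt-Nd6 the values were 17794, 15726 and 18924 TPM in KO muscle, 17191, 15939 and 14985 TPM in P32L muscle, 16732, 16977 and 17359 TPM in R287Q muscle, and 16732, 19720.0 and 17322 TPM in WT muscle. The groups overlapped. The mt-Nd6 row amounted to 2.99% to 4.02% of the rows of plus-strand mRNAs, which is therefore not a comparison of strands.

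mt-Cytb encodes cytochrome b, the mitochondrial subunit of complex III, and had 49069, 46613 and 48947 TPM in KO muscle, 48444, 49505 and 48674 TPM in P32L muscle, 52904, 51679 and 48559 TPM in R287Q muscle, and 46551, 48867 and 50274 TPM in WT muscle. The groups overlapped. The complex IV mRNAs encode the catalytic core of cytochrome c oxidase. mt-Co1 had 100207, 99169.8 and 103909 TPM in KO muscle, 103670, 101069 and 100601 TPM in P32L muscle, 105141, 109769 and 102487 TPM in R287Q muscle, and 100752, 99102 and 101734 TPM in WT muscle. All 3 R287Q values lay above all 3 WT values, by 0.07 (SE 0.04, 95% interval -0.02 to 0.17, adjusted p = 0.981) on the log2 scale. In that comparison 3.02% of all genes were higher without overlap. mt-Co2 had 41096, 39924 and 45206 TPM in KO muscle, 39888, 40504 and 39432 TPM in P32L muscle, 42281, 41196 and 37632 TPM in R287Q muscle, and 39524, 40721 and 40254 TPM in WT muscle. mt-Co3 had 46201, 45561 and 52390.5 TPM in KO muscle, 46859, 48809 and 45495 TPM in P32L muscle, 50659, 47391 and 42181 TPM in R287Q muscle, and 42968, 44396 and 45862 TPM in WT muscle. KO replicate 3 had the highest value of both, and neither gene separated a line from WT. mt-Atp6 and mt-Atp8 encode membrane subunits of ATP synthase (complex V), and their reading frames overlap by 43 bases. mt-Atp6 had 47444, 43833 and 47063 TPM in KO muscle, 46639, 50124 and 48348 TPM in P32L muscle, 50338, 49091 and 44109.7 TPM in R287Q muscle, and 43906, 45071 and 48208 TPM in WT muscle. mt-Atp8 had 51328, 43782 and 33582 TPM in KO muscle, 41620.1, 55669 and 53839.7 TPM in P32L muscle, 50964, 47634 and 50193 TPM in R287Q muscle, and 46923, 45057 and 56089 TPM in WT muscle. The lowest mt-Atp8 value, 33582 TPM in KO replicate 3, lay beside a value of mt-Atp6 in the same mouse that was above 2 of the 3 WT values. Over the 12 mice mt-Atp8 correlated with mt-Nd4l (r = 0.84 on log2 values) and with Gm10222 (r = 0.88) more than with its overlapping neighbour mt-Atp6 (r = 0.37), a description of libraries that share their depth and scaling. The median log2 difference over the 13 mRNAs was -0.01 in KO, -0.01 in P32L and 0.01 in R287Q against WT, beside 0.01 in KO, 0.01 in P32L and -0.04 in R287Q over all 9152 genes.

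**Figure D3:**
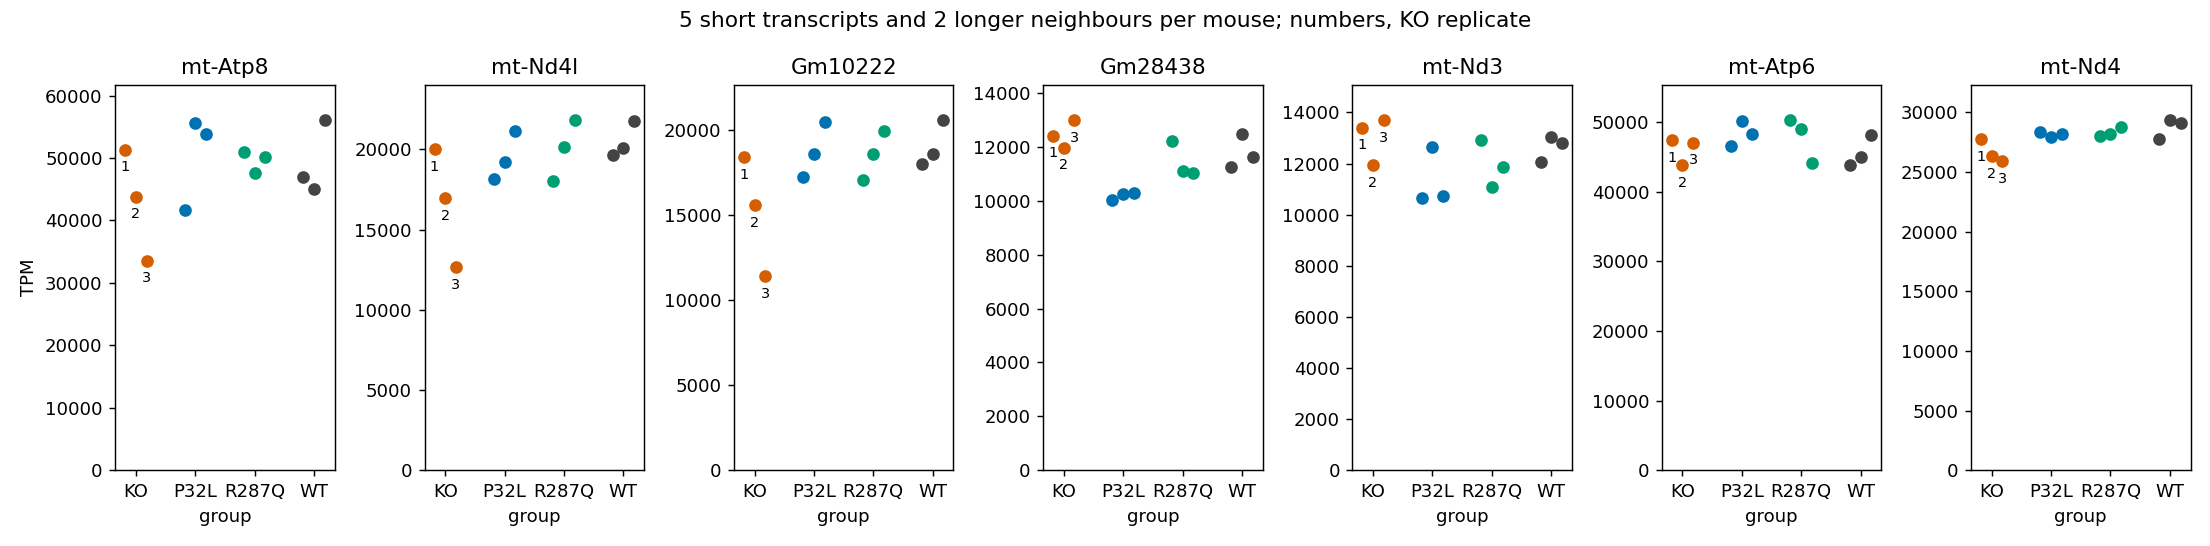
TPM per mouse of mt-Atp8, mt-Nd4l, Gm10222, Gm28438 and mt-Nd3, from 204 to 348 bases long, and of the longer mt-Atp6 and mt-Nd4, for KO, P32L, R287Q and WT, with KO mice marked by replicate number. KO replicate 3 has the lowest value of the 12 mice for mt-Atp8, mt-Nd4l and Gm10222 (33582, 12642 and 11386 TPM) and the highest for Gm28438 and mt-Nd3 (12999 and 13705 TPM), while its mt-Atp6 value, 47063 TPM, is within the range of the other mice.

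Taken as shares of the mitochondrial mRNA, complex I had a lower mean in each mutant line than in WT. Its share was 35.8, 35.0 and 34.1% in KO muscle, 35.2, 34.5 and 34.8% in P32L muscle, 33.7, 34.5 and 36.1% in R287Q muscle, and 36.0, 36.7 and 35.9% in WT muscle. The mean was 35.0% ± 0.860 in KO and 34.8% ± 0.365 in P32L, both without overlap with WT at 36.2% ± 0.459, and 34.8% ± 1.22 in R287Q, which overlapped WT (SD, n = 3 each). The exact permutation p was 0.1 for KO and for P32L, the smallest possible, and 0.3 for R287Q. After Benjamini-Hochberg adjustment over 54 such exact permutation tests (18 shares and ratios in 3 lines), of which 7 reached 0.1, the lowest adjusted p was 0.771. The mRNAs' share of the mitochondrial TPM was among those 7 in both KO and P32L. It was 92.1% ± 0.538 in KO and 92.2% ± 0.522 in P32L, both above WT at 91.4% ± 0.195 without overlap (SD, n = 3 each, exact permutation p = 0.1 for each), while R287Q at 91.5% ± 0.482 overlapped WT. Complex III, IV and V shares overlapped with WT in all 3 lines. Complex IV held 37.9% ± 2.12 in KO against 35.9% ± 0.701 in WT muscle (SD, n = 3 each), and the highest share, 40.1%, was in KO replicate 3.

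Both mitochondrial rRNAs were higher in P32L muscle than in WT muscle, and neither passed the test. mt-Rnr1, the rRNA of the small ribosomal subunit (chrM:70-1024), had 4868, 4406 and 4972 TPM in KO muscle, 6249, 7544 and 6068 TPM in P32L muscle, 5723, 5441 and 4443 TPM in R287Q muscle, and 4670.2, 4392 and 5790.3 TPM in WT muscle. mt-Rnr2, that of the large subunit (chrM:1094-2675), had 4122, 3482 and 4455 TPM in KO muscle, 5275, 6489 and 5109 TPM in P32L muscle, 5436, 5123 and 3832 TPM in R287Q muscle, and 3891, 3856 and 4934 TPM in WT muscle. For each, all 3 P32L mice stood above all 3 WT mice, while KO and R287Q overlapped WT. The log2 difference between P32L and WT was 0.42 (SE 0.13, 95% interval 0.14 to 0.71, adjusted p = 0.450) for mt-Rnr1. For mt-Rnr2 it was 0.41 (SE 0.16, 95% interval 0.07 to 0.76, adjusted p = 0.634). So 2 of 2 rRNAs were higher without overlap, as were 5.56% of all genes. The count stayed at 2 when levels were taken over the mitochondrial mRNA sum. It was 0 when TPM was rescaled to the total outside the mitochondrial rows and copies. Leaving out any 1 mouse of either group also gave 2, but leaving out mice cannot lower a no-overlap count. These settings were chosen after seeing the data. rRNA made up 2.18% ± 0.226 of the mitochondrial TPM in P32L against 1.62% ± 0.190 in WT muscle (SD, n = 3 each, exact permutation p = 0.1). Both rRNAs were also higher without overlap in P32L than in KO, by 0.47 for mt-Rnr1 and 0.48 for mt-Rnr2 on the log2 scale, in a comparison where 7.99% of all genes were. In R287Q against P32L, mt-Rnr1 was lower without overlap at -0.35, beside 10.2% of all genes. Rn18s, the small-subunit rRNA of cytoplasmic ribosomes, had 4986 to 5256 TPM in P32L muscle, within the 4339 to 6183 TPM of WT muscle. In KO muscle Rn18s was below all WT mice at 3536 to 3734 TPM, and in R287Q muscle it was 4363 to 5796 TPM. So this other rRNA did not separate P32L from WT. Beside these differences, 7 of 7 slow-fibre genes had lower means in P32L than in WT (median log2 difference -1.41). Without overlap 1 of the 7 was lower, beside 3.65% of all genes. Their sums overlapped, with 11.1 to 128.8 TPM in P32L muscle and 128.7 to 218 TPM in WT muscle. limma called 0 of these genes, with the lowest adjusted p at 0.956. None of the 7 was listed at 0 in any library, and their part in the rRNA and tRNA differences was not tested. The 2 mitochondrial rRNAs kept an even ratio, with mt-Rnr2 at 0.790 to 0.950 of mt-Rnr1 in the 12 mice.

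Most mitochondrial tRNA rows had lower values in P32L muscle than in WT muscle. Of 22, 21 were lower and 16 of them without overlap, beside 3.65% of all genes lower without overlap in this comparison. Their median log2 difference was -0.41, beside 0.01 over all genes, and 11 were lower at an unadjusted p under 0.05, beside 2.55% of all genes. The slow-fibre genes were likewise 7 of 7 lower in P32L. limma called 0 of 22, with the lowest adjusted p at 0.386. Their summed level was 38476, 30765 and 34873 TPM in KO muscle, 31410.1, 33621 and 29124 TPM in P32L muscle, 35807, 38284 and 42477 TPM in R287Q muscle, and 37796, 41193 and 38942 TPM in WT muscle. P32L lay below WT throughout, KO replicate 1 lay inside the WT range, and R287Q replicate 3 was the highest of all mice. tRNAs made up 5.60% ± 0.325 of the mitochondrial TPM in P32L against 6.98% ± 0.346 in WT muscle (SD, n = 3 each, exact permutation p = 0.1, the smallest possible). The no-overlap count was 16 over the mitochondrial mRNA sum and 10 when TPM was rescaled to the total outside mitochondrial rows and copies. It was 16 to 18 when 1 mouse was left out, a change that cannot lower such a count. These settings were chosen after seeing the data. tRNAs released from shared precursors and measured in the same libraries are not independent, so 16 rows are not 16 separate observations. Lower values were found on both strands, for 13 of 14 tRNAs annotated on the plus strand and 8 of 8 on the minus strand. Since the kit does not mark strand, reads of a tRNA cannot be told apart from reads of the precursor of the opposite strand at the same place. Reads of a cut tRNA were not separated from reads of its own uncut precursor either. The values are therefore those of tRNA rows and cannot be read as levels of mature tRNA.

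The 5 most abundant tRNAs are given for every mouse. mt-Ts1, the tRNA for serine (UCN) at chrM:6870-6938, and mt-Te, the tRNA for glutamate at chrM:14071-14139, lie on the minus strand and are shown 5′ to 3′ from GENCODE M21 because they had the 2 highest mean levels of all tRNAs.
mt-Ts1: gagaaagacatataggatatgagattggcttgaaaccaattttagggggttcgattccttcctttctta
mt-Te: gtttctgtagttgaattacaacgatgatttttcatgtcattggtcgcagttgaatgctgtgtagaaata
mt-Ts1 overlaps the end of mt-Co1 on the other strand by 3 bases, and had 9221, 10198 and 12759 TPM in KO muscle, 9565, 9462 and 8085 TPM in P32L muscle, 11182, 9770.4 and 8916 TPM in R287Q muscle, and 9189, 9609.5 and 9462 TPM in WT muscle. KO replicate 3 was the highest, and no line separated from WT. mt-Te had 8643, 6326 and 7284 TPM in KO muscle, 6995, 6679 and 5892 TPM in P32L muscle, 6631, 6812 and 8877 TPM in R287Q muscle, and 7952, 10780.1 and 8493 TPM in WT muscle. All P32L mice were below all WT mice, with a log2 difference of -0.47 (SE 0.15, 95% interval -0.81 to -0.13, adjusted p = 0.497). mt-Tn, the tRNA for asparagine, had 3727, 2144 and 2640.1 TPM in KO muscle, 2605, 3221 and 2702 TPM in P32L muscle, 3198, 3548 and 4128 TPM in R287Q muscle, and 3336, 4077 and 3698 TPM in WT muscle. mt-Tc, the tRNA for cysteine, had 3486, 2069 and 2564 TPM in KO muscle, 2491, 2970.3 and 2544 TPM in P32L muscle, 3054, 3346 and 3995 TPM in R287Q muscle, and 3159, 3917 and 3360.1 TPM in WT muscle. Both were below WT without overlap in P32L, at -0.38 for mt-Tn and -0.38 for mt-Tc. mt-Tn, mt-Tc, mt-Ta (alanine) and mt-Ty (tyrosine) lie side by side on the minus strand, and their log2 values correlated with each other at r = 0.936 to 0.998 over the 12 libraries, beside a median r of 0.65 over all tRNA pairs. mt-Tl1, a leucine tRNA that lies directly after mt-Rnr2, had 3639.7, 2507 and 2068 TPM in KO muscle, 1752, 2682 and 2168 TPM in P32L muscle, 2483, 3822 and 4100.0 TPM in R287Q muscle, and 4126, 2519.7 and 3735 TPM in WT muscle. The groups overlapped, with WT replicate 2 below P32L replicate 2.

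The tRNAs with the lowest p-values in P32L, named after their values were seen, were mt-Ts2 and mt-Tg. mt-Ts2, a serine tRNA, had 258, 253 and 243 TPM in P32L muscle, against 349, 402 and 343 TPM in WT muscle. The log2 difference was -0.53 (SE 0.15, 95% interval -0.87 to -0.20, adjusted p = 0.386). mt-Tg, the glycine tRNA, had 287, 279 and 252 TPM in P32L muscle, against 473, 352 and 414 TPM in WT muscle. Its log2 difference was -0.59 (SE 0.17, 95% interval -0.96 to -0.21, adjusted p = 0.396). Each was lower in 3 of 3 P32L mice than in any WT mouse. mt-Ti, the isoleucine tRNA, was the only one of the 22 with a positive log2 difference in P32L (0.14), and its groups overlapped.

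In KO muscle 18 of 22 tRNAs were lower than in WT muscle, with a median log2 difference of -0.29 beside 0.01 over all genes. Only 3 did not overlap (mt-Tq, mt-Tw and mt-Ty, named after their values were seen), beside 3.47% of all genes. mt-Tw, the tryptophan tRNA, had 211, 165 and 191 TPM in KO muscle, against 273, 263 and 245 TPM in WT muscle. Its log2 difference was -0.46 (SE 0.14, 95% interval -0.76 to -0.17, adjusted p = 0.550). The count without overlap was 12 without KO replicate 1, 8 without WT replicate 2 and 5 without KO replicate 2. Leaving out a mouse can only keep or raise this count, and the matching share of all genes was not computed. The median log2 difference depended on single mice, at -0.42 without KO replicate 1 and -0.16 without KO replicate 3. In R287Q muscle 18 of 22 tRNAs were higher than in WT muscle, with a median of 0.10 beside -0.04 over all genes, and mt-Ti and mt-Tp did not overlap, beside 3.02% of all genes. R287Q replicate 3 had the highest value of all 12 mice for 17 of 22 tRNAs. Without it the median was -0.06. The count without overlap was 6 without R287Q replicate 1, and here too leaving out a mouse cannot lower the count.

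Set against each other, R287Q had higher values than P32L for 22 of 22 tRNA rows, with a median log2 difference of 0.48. Of these 11 did not overlap, beside 2.31% of all genes. Slow-fibre genes were higher in R287Q for 7 of 7, with a median log2 difference of 1.82 and sums of 51.1 to 366 TPM in R287Q muscle against 11.1 to 129 TPM in P32L muscle, and their part in the tRNA differences was not tested. The smallest p was that of mt-Tg, with 399, 462 and 603 TPM in R287Q muscle, against 287, 279 and 252 TPM in P32L muscle. This difference was 0.82 (SE 0.17, 95% interval 0.44 to 1.19, adjusted p = 0.203) on the log2 scale, higher in 3 of 3 mice. R287Q against KO gave higher levels for 21 of 22, 4 without overlap, beside 2.68% of all genes. P32L against KO gave lower levels for 15 of 22, 4 without overlap, beside 4.98% of all genes. No tRNA passed limma's adjusted threshold in these 3 comparisons, where the lowest adjusted p was 0.203 for R287Q against P32L, 0.237 for R287Q against KO and 0.530 for P32L against KO.

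**Figure D4:**
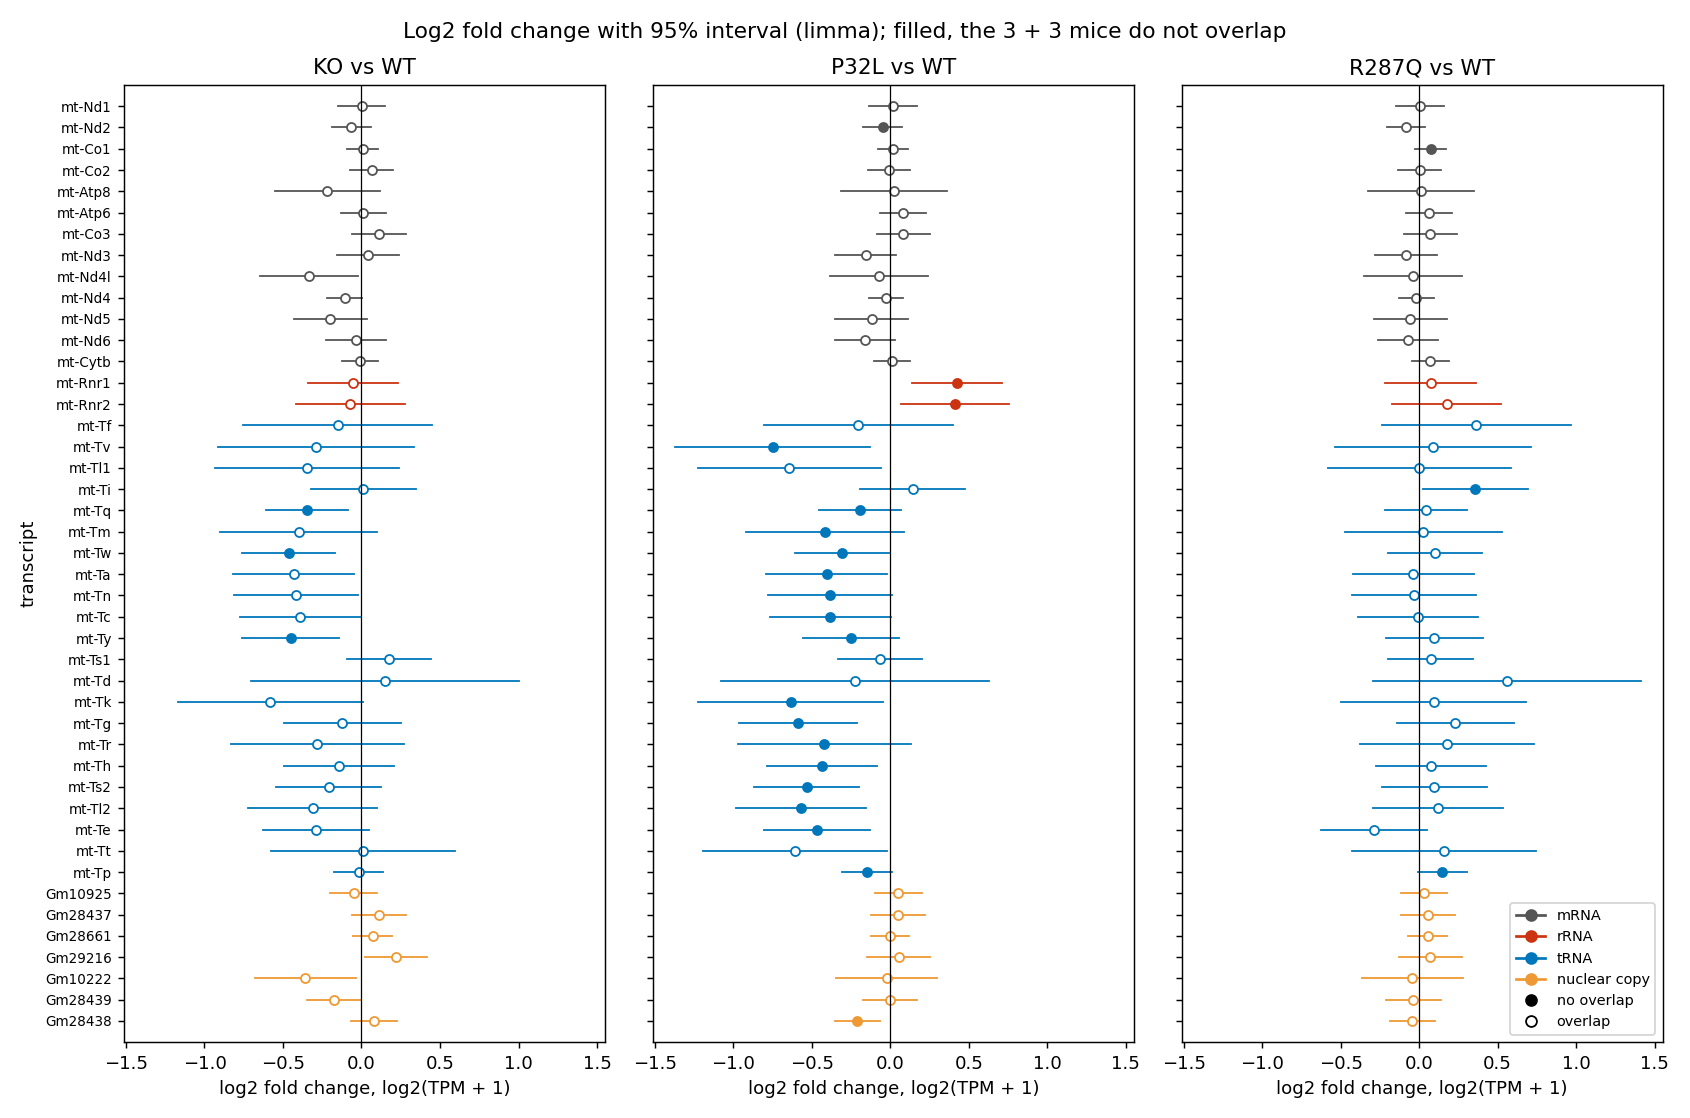
Log2 fold change with 95% interval of the 44 members in KO, P32L and R287Q against WT, coloured by class, with filled points where the 3 and 3 mice do not overlap. In P32L both rRNAs lie to the right of 0 and 21 of 22 tRNAs to the left, while most mRNAs and copies lie near 0 in all 3 lines, and no member passed the adjusted threshold.

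The rows of the nuclear copies had mean values from 11472 TPM (Gm28438) to 45464 TPM (Gm10925) and, like their counterparts, mostly overlapped between lines and WT. Gm10925 had 45928, 41687 and 43292 TPM in KO muscle, 43889, 48494 and 48077 TPM in P32L muscle, 47286, 48375 and 43048 TPM in R287Q muscle, and 44816, 43351 and 47325 TPM in WT muscle. Gm28437 had 44194, 43384 and 48218 TPM in KO muscle, 42056, 44775 and 43023 TPM in P32L muscle, 48240.3, 43656 and 39030.3 TPM in R287Q muscle, and 39928, 42168 and 43517 TPM in WT muscle. Gm28661 had 36574, 36132 and 39792 TPM in KO muscle, 35290.3, 36852 and 34753 TPM in P32L muscle, 37012, 37638 and 36514 TPM in R287Q muscle, and 37182, 34952 and 34857 TPM in WT muscle. In these 3 copies every line overlapped WT. For Gm29216 the values were 33762, 32968 and 39924 TPM in KO muscle, 33927, 30409 and 30564 TPM in P32L muscle, 32094, 31641 and 32114 TPM in R287Q muscle, and 29911, 33998 and 27666 TPM in WT muscle. KO replicate 3 was the highest of the 12 mice, and the log2 difference between KO and WT was 0.22 (SE 0.09, 95% interval 0.02 to 0.42, adjusted p = 0.776) with overlapping groups. Gm10222 had 18386, 15574 and 11386 TPM in KO muscle, 17212, 18553 and 20456 TPM in P32L muscle, 17026, 18558 and 19893 TPM in R287Q muscle, and 17966, 18576 and 20564 TPM in WT muscle. Its log2 difference between KO and WT was -0.36 (SE 0.15, 95% interval -0.68 to -0.04, adjusted p = 0.766), and it was -0.17 without KO replicate 3, the lowest of all mice. For Gm28439 the values were 16277, 14238 and 13138 TPM in KO muscle, 15745, 16467 and 16828 TPM in P32L muscle, 15377, 15972 and 16511 TPM in R287Q muscle, and 15616, 16495 and 16954 TPM in WT muscle. The KO group again had the 2 lowest mice and overlapped WT. Gm28438 had 12417, 11969 and 12999 TPM in KO muscle, 10026, 10258 and 10279 TPM in P32L muscle, 12217, 11105 and 11033 TPM in R287Q muscle, and 11249, 12496 and 11612 TPM in WT muscle. All P32L mice were the lowest of the 12, at -0.21 (SE 0.07, 95% interval -0.35 to -0.06, adjusted p = 0.464) against WT and -0.29 (SE 0.07, 95% interval -0.44 to -0.14, adjusted p = 0.247) against KO on the log2 scale. It was 1 of 7 copies lower without overlap in P32L than in WT, beside the 3.65% of all genes, and its counterpart mt-Nd3 at -0.16 overlapped.

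The ratio of copy to counterpart on the TPM scale was close to 1 for the 5 nearly whole copies, between 0.810 and 1.02 in all mice. It was 0.507 to 0.596 for Gm28439 over mt-Nd4 and 0.272 to 0.384 for Gm29216 over mt-Co1. Gm28439 has 63.6% of the length of mt-Nd4 and Gm29216 31.8% of that of mt-Co1, so for both the ratio of levels, already scaled by length, lay near the ratio of lengths. Over the 12 mice the log2 levels of copy and counterpart correlated at r = 0.99 for Gm10222 and mt-Nd4l, 0.95 for Gm28437 and mt-Co3, 0.90 for Gm28439 and mt-Nd4, and 0.85 for Gm10925 and mt-Atp6. The value was 0.79 for Gm28438 and mt-Nd3, 0.65 for Gm28661 and mt-Co2, and 0.10 for Gm29216 and mt-Co1. How reads that match both loci were counted is not given in the sources used here, so these correlations are a description of the table, over libraries that share their depth and scaling. Gm10222 over mt-Nd4l was 0.918, 0.917 and 0.901 in KO muscle, 0.947, 0.966 and 0.968 in P32L muscle, 0.945, 0.921 and 0.911 in R287Q muscle, and 0.915, 0.925 and 0.943 in WT muscle. P32L was above WT without overlap, with 0.960 ± 0.0115 against 0.928 ± 0.0145 (SD, n = 3 each, exact permutation p = 0.1, adjusted p = 0.771). In the other 6 copies the ratio overlapped with WT in every line.

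**Figure D5:**
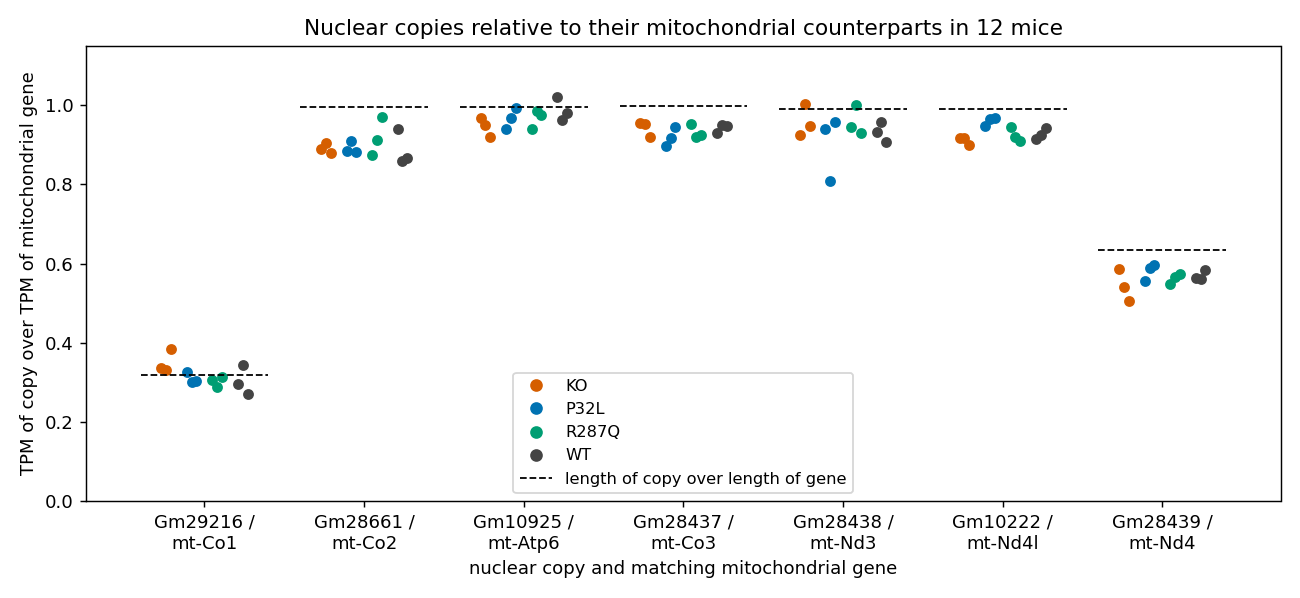
TPM of each nuclear copy over that of its mitochondrial counterpart, with 1 point per mouse for KO, P32L, R287Q and WT, and a dashed line at the length of the copy over that of the gene. The 5 nearly whole copies lie between 0.810 and 1.02, Gm28439 between 0.507 and 0.596 and Gm29216 between 0.272 and 0.384.

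Nuclear genes that express the mitochondrial genome were followed through a list of 152 genes of mitochondrial transcription, RNA processing, RNA decay, translation and ribosome and of regulators of mitochondrial biogenesis, of which 136 were tested. limma called 0 of 136 in each line. In KO 93 were higher and 43 lower than in WT (median log2 difference 0.04), in P32L 63 and 73 (-0.01), and in R287Q 46 and 90 (-0.03), beside all-gene medians of 0.01 in KO, 0.01 in P32L and -0.04 in R287Q. At an unadjusted p under 0.05, 0 were higher and 0 lower in KO (3.67% and 2.28% of all genes), 0 higher and 2 lower in P32L (3.98% and 2.55%), and 0 higher and 0 lower in R287Q (1.7% and 3.66%), each share of the list being below that of all genes. Tfam, which packages mitochondrial DNA and starts its transcription, had 10.1 ± 0.854 TPM in KO, 9.71 ± 0.891 TPM in P32L, 9.03 ± 0.351 TPM in R287Q and 9.07 ± 1.11 TPM in WT muscle (SD, n = 3 each). Polrmt, the mitochondrial RNA polymerase, had 4.53 ± 0.403 TPM in KO, 4.70 ± 0.0786 TPM in P32L, 4.69 ± 0.770 TPM in R287Q and 4.62 ± 0.955 TPM in WT muscle (SD, n = 3 each). Elac2, which cuts the 3′ end of tRNAs, had 2.51 ± 0.392 TPM in KO, 2.52 ± 0.148 TPM in P32L, 2.39 ± 0.448 TPM in R287Q and 2.60 ± 0.467 TPM in WT muscle (SD, n = 3 each). Tfb2m, a transcription factor of mitochondria, had log2 differences of -0.02 in KO, 0.01 in P32L and -0.14 in R287Q. Lrpprc, which binds mitochondrial mRNA, had -0.03, -0.06 and -0.03 in the same lines, and the poly(A) polymerase gene Mtpap -0.12, -0.05 and -0.09. Pnpt1, an RNA-degrading enzyme, had -0.01, -0.02 and 0.03. The lowest p-values in P32L were those of Rpusd3, a pseudouridine synthase of mitochondrial RNA (log2 difference -0.31, adjusted p = 0.723), Mrpl40, a protein of the large mitochondrial ribosomal subunit (-0.21, adjusted p = 0.755), and Trub2, another pseudouridine synthase (-0.16, adjusted p = 0.827). In KO they were those of the nuclease gene Endog (0.33), Mrps30 (0.23) and Mrpl54 (0.19), each at an adjusted p of 0.852. Those of R287Q were Mrpl23 (-0.21, adjusted p = 0.934), Mrpl52 (-0.22, adjusted p = 0.980) and Slirp, a partner of Lrpprc in keeping mitochondrial mRNA stable (-0.24, adjusted p = 0.981).

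Nuclear-encoded subunits of complexes I, III, IV and V, the partners of the mitochondrial mRNAs, were tested for 72 of 73 genes, and limma called 0 in any line. In KO 71 of 72 were higher than in WT, with a median log2 difference of 0.11, beside 4766 of 9152 genes higher and a median of 0.01. In P32L 65 of 72 were lower, with a median of -0.08, beside 4076 of 9152 genes lower and a median of 0.01. In R287Q 41 of 72 were lower, with a median of -0.01, a smaller share than the 5780 of 9152 genes lower with a median of -0.04. The ratio of summed mitochondrial mRNA to these subunits was 50.2 ± 7.24 in KO, 57.1 ± 4.71 in P32L, 55.3 ± 5.78 in R287Q and 53.8 ± 10.02 in WT muscle (SD, n = 3 each), and all lines overlapped WT. Over the 12 mice the mitochondrial share was set against 3 shares of the remaining TPM, with 100000 permutations and Benjamini-Hochberg adjustment over the 6 tests of these 3 relations. For the nuclear respiratory subunits Pearson's r was 0.02 (permutation p = 0.947) and Spearman's rho -0.17 (permutation p = 0.588), and r was 0.16 without the 2 mice farthest from the median. For the slow-fibre genes r was 0.50 (permutation p = 0.0976, adjusted 0.293) and rho 0.59 (permutation p = 0.0490, adjusted 0.293), and r was 0.25 without the 2 farthest mice. For Rn18s r was 0.34 (permutation p = 0.277) and rho 0.17 (permutation p = 0.587), and r was -0.40 without the 2 farthest. None passed adjustment. Without the 2 farthest mice r was smaller for the slow-fibre genes and changed sign for Rn18s, and rho was not computed without them.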

How the data were processed

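Expression of 30488 gene symbols was measured by RNA-seq in gastrocnemius of 12 mice, 3 in each of 4 groups taken from the sample labels. Muscle (100 mg) was frozen and 2 µg of its Trizol RNA entered an NEBNext Ultra library, per the labels' protocols. Any selection of poly(A) RNA, the depth, the tool versions and the annotation were not given in the sources used here. FastQC, HISAT2, StringTie and DESeq2 and the build mm10 are named per the submitters' processing notes. The authors deposited a table of log2 values, which sum to 997591 to 998739 per library once 2 is raised to each value and 1 subtracted. They were therefore read as log2(TPM + 1). The design had foreseen TPM, and the deposited pseudocount of 1 was kept.

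limma 3.58.1 (R 4.3.3, intensity trend, all 12 libraries on group means, 8 residual degrees of freedom) tested 9152 genes with a mean of 1 TPM or more, two-sided, with Benjamini-Hochberg adjustment. The script was tested on simulated data. Shares and ratios were compared with exact permutation tests (SciPy 1.17.1). Copies were aligned to mitochondrial genes from the GENCODE M21 transcripts with Biopython 1.88. The mRNAs, rRNAs, copies and the 5 most abundant tRNAs were named with values in every library. Of the genes of mitochondrial expression, 8 factors and the 3 lowest p-values per line were named. Members, lists and tests were chosen with earlier results of these data known. Alternatives covered the pseudocount, low-value filter, scaling, copies summed into counterparts, the variance model, 2-group fits, a replicate block and leaving out each mouse.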

Additional observations from a re-analysis of the deposited data

Results flagged for a closer look

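mt-Tp, the tRNA for proline, lay on opposite sides of WT in the R287Q and P32L lines, with every R287Q mouse above and every P32L mouse below every WT mouse. It had 1283, 1362 and 1380 TPM in R287Q muscle, 1126, 1124 and 1029 TPM in P32L muscle, and 1244, 1154 and 1236 TPM in WT muscle. The log2 difference between R287Q and P32L was 0.30 (SE 0.07), higher in 3 of 3 mice, with an unadjusted p of 0.00159 and an adjusted p of 0.311 in limma, so the difference failed the correction over 9152 genes. mt-Tp was picked by searching the 44 members in each pair of mutant lines for such opposite separation. Its non-overlap and low unadjusted p therefore come with that choice, and the share of all genes with this pattern was not computed. mt-Tp lies on the minus strand at the end of the annotated mitochondrial genes (chrM:15356-15422), and with a coefficient of variation of 8.28% it was the least variable of the 22 tRNAs.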

How the results depend on the processing

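Over the 6 comparisons together there were 144 combinations of comparison and alternative setting. limma called 0 of the 44 members in each of them, so no call depended on a setting. Of 836 alternative values for 35 member differences, 833 kept their direction, and 3 (Gm28439 in KO, Gm28438 in P32L and mt-Co1 in R287Q) became 0 under quantile normalization. Those 35 had been picked for an unadjusted limma p under 0.05 or no overlap with WT. The filter, variance-model, 2-group and block settings cannot change a log2 difference, nor can leaving out a mouse from outside the comparison. Without overlap, leaving out a mouse cannot reverse a difference. Many of the 833 were therefore fixed in advance. The P32L minus WT mitochondrial share was -0.39 percentage points and changed sign to 0.40 with tRNA rows left out, and it ranged from -1.21 to 0.58 when 1 mouse was left out (0.20 without P32L replicate 1, 0.58 without WT replicate 3). That of KO ranged from -2.61 to -0.558 and that of R287Q from 0.000263 to 1.79. The KO minus WT share of the copies was 0.359 and changed sign to -0.746 as a percent of TPM outside mitochondrial rows and to -0.044 as a log2 ratio. With 1 mouse left out it ranged from 0.126 to 0.766 in KO, 0.0330 to 0.444 in P32L and 0.210 to 0.760 in R287Q. The cause was not tested. Replicate numbers did not pair the mice: correlations of same-numbered deviations ran from -0.53 to 0.24, and 0 of 12 libraries correlated best with their own number. With replicate number as a block 0 members were called in each comparison. For the mitochondrial share, sign flips of same-numbered differences gave exact permutation p of 0.5 in KO, 1 in P32L and 0.75 in R287Q. With 3 pairs the smallest p of this test is above 0.1, so it could not have reached 0.05. Read depth is unknown, so the counting error of each value is unknown. Values of copies and counterparts cannot be assigned to either locus with certainty.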

Other observations

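The mice at the extremes of the mitochondrial tRNAs were few. R287Q replicate 3 had the highest value of 17 of 22 tRNAs, P32L replicate 3 the lowest of 10, KO replicate 2 the lowest of 7 and KO replicate 3 the lowest of 4. Among the mRNAs KO replicate 3 had the lowest value of 4 and the highest of 3 out of 13. P32L replicate 2 had the highest value of both rRNAs. The 8 mRNAs that lie wholly or partly in the stretch copied on chromosome 1 had median log2 differences of 0.01 in KO, 0.00 in P32L and 0.01 in R287Q against WT, and the 5 mRNAs outside it had -0.04, -0.05 and -0.06 in the same lines. Their ranges overlapped in each line. Those outside were mt-Nd1, mt-Nd2, mt-Nd5, mt-Nd6 and mt-Cytb, so all but mt-Cytb belong to complex I. All complex IV and V mRNAs lie wholly or partly inside. This split and the complex I shares above therefore rest on many of the same genes, and position and complex cannot be fully told apart.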
